A study of Homo sapiens with 12 samples.

Results

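The genes described here are 41 genes whose products act in the G2 phase of the cell cycle and in mitosis, out of 12117 genes measured in H1299 cells, a human lung carcinoma line of the non-small cell type. They are cyclins and their kinase, mitotic and checkpoint kinases, partners of the anaphase-promoting complex, kinesins, kinetochore proteins, spindle proteins, cytokinesis proteins and a pair of chromosome proteins. A gene was taken in when it was on the list and when 1 of its probes had a detection p below 0.05 on both arrays of at least 1 group. All 41 met this rule and all 41 were detected on all 12 arrays. The cells had been exposed for 6 h to 1 of 3 treatments and were collected at 12 h or 24 h, with 2 Illumina bead arrays in each of the 6 groups. The treatments were lipofection of GAPDH siRNA, delivery of GAPDH siRNA by PTD-DRBD, and phosphate-buffered saline alone as the control. PTD-DRBD is a fusion protein in which a peptide that crosses membranes is joined to a domain that binds double-stranded RNA, so that no lipid is needed. The control cells had neither carrier nor siRNA, so an effect of a carrier, of the siRNA and of lower GAPDH cannot be told apart.

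Cyclin B and its partner kinase CDK1 drive entry into mitosis, and CDC25 phosphatases switch the kinase on. Genes of this class are transcribed together late in the cell cycle, under the FOXM1 and B-MYB factors and the MuvB complex, and are held down in early phases by the DREAM complex. Several of their protein products are then degraded as cells leave mitosis, through the anaphase-promoting complex. Because transcription peaks in this window, mRNA levels in a growing culture depend on how many cells are in G2 and mitosis. In bulk RNA, a smaller share of cells in G2 and mitosis and less mRNA in each such cell cannot be told apart.

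Changes are log2 fold changes of normalized intensity with the standard error (SE) of a limma fit over all 12 arrays, and a gene is said to rise or fall when its limma p, adjusted over 12117 genes, was under 0.05. Each group had n = 2 arrays, for which an exact two-sided permutation test cannot go below p = 0.333. Nothing in the labels says whether a pair of arrays stands for separate cultures, and the p-values therefore reflect array-to-array spread that may be technical. The number of detected probes ran from 17990 to 19097, and replicate arrays correlated at 0.997 to 0.998. The target GAPDH was at 41.6% and 51.3% of control with lipofection and at 9.77% and 14.0% with PTD-DRBD at 12 h and 24 h. Of genes that mark this line, KRT8, KRT18, VIM and CDH2 were detected on all 12 arrays, KRT19 on 0 and EPCAM on 1. Of markers of blood, fibroblasts and endothelium, CD3E, CD14, HBB, COL1A1, COL1A2, COL3A1, LUM, CDH5 and VWF were detected on 0 arrays. DCN was detected on at most 2 arrays, HBA1 on 5, PECAM1 on 6, and CD68, HBG1 and 1 PTPRC probe on 12. With lipofection, 3 of 4 tested line genes fell at 12 h and 0 at 24 h, against 6.92% and 12.9% of all genes. Of 4 tested markers of other cells 0 passed at 12 h and 1 rose at 24 h, where 10.6% of all genes rose. Their part in the results was not tested.

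With lipofection, the G2 and mitosis genes were higher than control at 12 h and lower at 24 h. At 12 h, 13 of the 41 rose and 0 fell, against 4.95% of all genes that rose and 6.92% that fell. The rises were small, with a median of 0.20 over the 41 genes and of −0.00 over all genes, and 38 of the 41 values were above 0. They were led by KIF4A, a chromosome-bound kinesin, at 0.60 (SE 0.08, limma adjusted p = 0.000832), KIF20A, a kinesin of the dividing cell's midzone, at 0.52 (SE 0.09), the kinetochore gene NDC80 at 0.51 (SE 0.08) and the phosphatase gene CDC25C at 0.50 (SE 0.07). At 24 h, 25 fell and 1 rose, against 12.9% of all genes that fell and 10.6% that rose. The median was −0.30, and 38 of the 41 values were below 0. ECT2, which starts cytokinesis, fell to 57.2% of control (log2 −0.80, SE 0.19, limma adjusted p = 0.0108), HMMR, a spindle protein, to 61.2% (log2 −0.71, SE 0.12) and CENPF, a kinetochore protein, to 62.9% (log2 −0.67, SE 0.09).

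These counts depended on single arrays, and with 1 array left out its group rests on 1 array. The same counts over all genes were not made. A loss of calls among all genes and one among these genes therefore cannot be told apart. At 12 h, 5 genes rose without either lipofection array, 5 without the second control array and 8 without the first. At 24 h, 11 fell without the second lipofection array and 13 without the second control array. In both cases CDK1, CDC25B, AURKA, TTK, KIF23, CENPE, NDC80, TPX2, DLGAP5, NUSAP1, CKAP2, ECT2 and RACGAP1 did not pass. With only the lipofection and control arrays of 24 h fitted, 16 fell and 1 rose, and with both second treated arrays left out 11 fell. KIF4A, KIF20A, NDC80 and CDC25C at 12 h, and HMMR, CENPF, PLK1, KIF14, KIF20A, CCNB1 and NEK2 at 24 h, passed in each of 23 other settings, array omissions included and a fold threshold apart. The median kept its sign in all of them, within 0.18 to 0.25 at 12 h and −0.35 to −0.22 at 24 h.

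**Figure D1:**
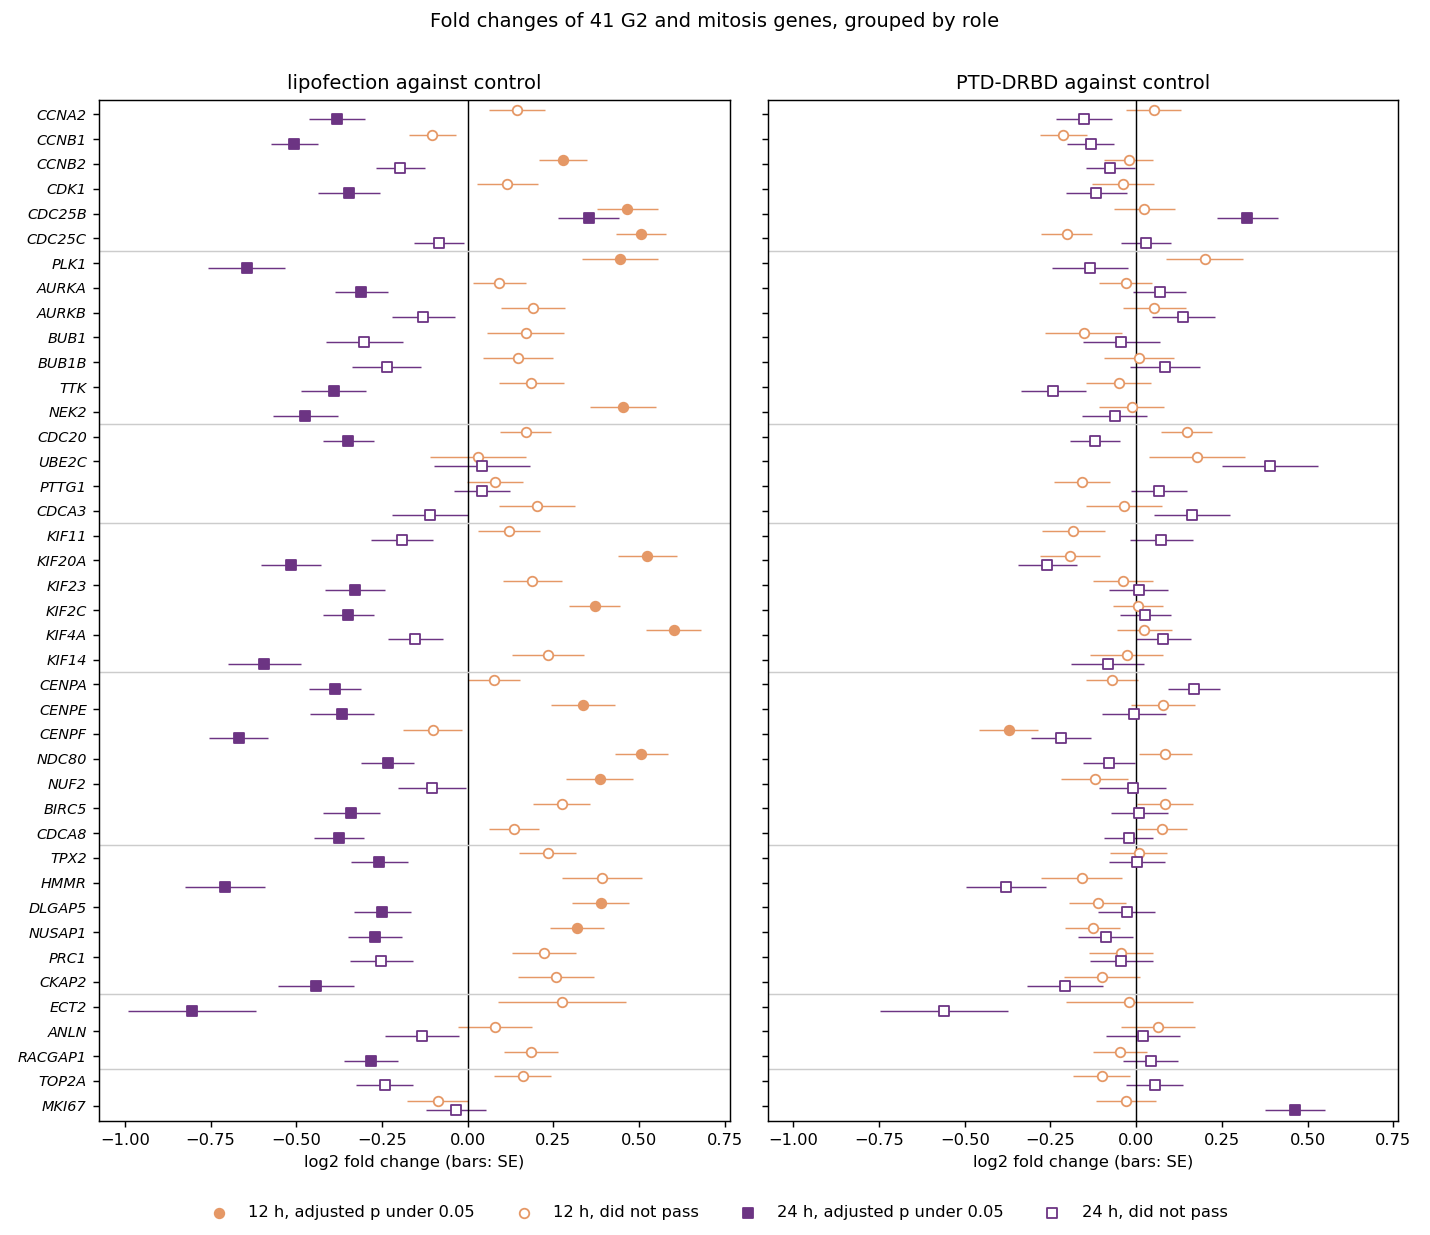
Log2 fold changes against control (x axis, bars are SE) of the 41 G2 and mitosis genes (y axis, lines part the roles), with lipofection on the left and PTD-DRBD on the right; circles are 12 h, squares 24 h, and filled symbols passed at an adjusted p under 0.05. With lipofection 13 circles are filled on the right of 0 and 25 squares on the left, while with PTD-DRBD 1 circle and 2 squares are filled.

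The promoters of ECT2, HMMR and CENPF, the genes with the largest falls at 24 h, are shown to describe promoter elements that genes of this class share. Each runs 5′ to 3′ from 250 bases before to 50 bases after the RefSeq start on build GRCh38.p14, all on the plus strand, at chr3:172750476-172750775 for ECT2, chr5:163460382-163460681 for HMMR and chr1:214602945-214603244 for CENPF. Capitals mark the cell cycle genes homology region (CHR, TTTGAA or TTCGAA), the element bound by MuvB complexes, and the CCAAT box, bound by NF-Y, each on either strand.
ECT2: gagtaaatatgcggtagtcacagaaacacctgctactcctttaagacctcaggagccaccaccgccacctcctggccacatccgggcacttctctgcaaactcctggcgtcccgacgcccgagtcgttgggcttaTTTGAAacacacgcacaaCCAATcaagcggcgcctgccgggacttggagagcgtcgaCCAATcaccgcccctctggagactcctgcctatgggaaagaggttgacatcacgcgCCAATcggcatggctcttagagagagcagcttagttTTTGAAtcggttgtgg
HMMR: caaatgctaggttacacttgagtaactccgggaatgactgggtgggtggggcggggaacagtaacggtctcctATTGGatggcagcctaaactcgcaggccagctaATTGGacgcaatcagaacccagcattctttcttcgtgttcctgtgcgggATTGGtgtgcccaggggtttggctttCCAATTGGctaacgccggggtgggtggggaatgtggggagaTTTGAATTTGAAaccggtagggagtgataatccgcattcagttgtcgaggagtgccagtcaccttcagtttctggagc
CENPF: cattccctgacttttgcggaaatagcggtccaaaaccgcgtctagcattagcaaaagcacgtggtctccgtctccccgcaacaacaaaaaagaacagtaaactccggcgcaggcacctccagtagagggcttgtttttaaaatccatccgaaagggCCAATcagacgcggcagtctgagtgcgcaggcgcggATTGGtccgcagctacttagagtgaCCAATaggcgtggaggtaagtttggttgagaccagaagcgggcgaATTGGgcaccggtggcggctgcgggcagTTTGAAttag
ECT2 held 2 CHR and 3 CCAAT matches, HMMR 2 and 5, and CENPF 1 and 4. In HMMR the CHR matches adjoin each other and a pair of CCAAT matches on opposite strands overlap.

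Promoters of 35 of the 41 genes were matched in the RefSeq table by symbol, taking the first start listed for a gene with several. A CHR match was found in 24 of the 35, or 68.6%, against 16.6% of 27305 genes in the table with a window of the same length. A CCAAT match was found in 26, or 74.3%, against 35.7% of all genes, and 16 held at least 2, or 45.7%, against 11.3%. Both elements were in 20 of the 35, or 57.1%, against 6.58% of all genes. CDC25B, CDC25C, CENPE, CKAP2 and KIF2C held neither in this window. Among them CDC25B rose with lipofection at 24 h, CENPE, CKAP2 and KIF2C fell and CDC25C did not pass. Members that passed with lipofection at neither time held matches too. TOP2A had 2 CHR and 4 CCAAT matches, MKI67 2 and 2, and BUB1 1 and 2. Of the 33 CHR matches 24 began within 50 bases of the start, and the 55 CCAAT matches had their median 69 bases before it. A match is a stretch of letters and not a measured binding site, and any part of these elements in the changes was not tested.

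**Figure D2:**
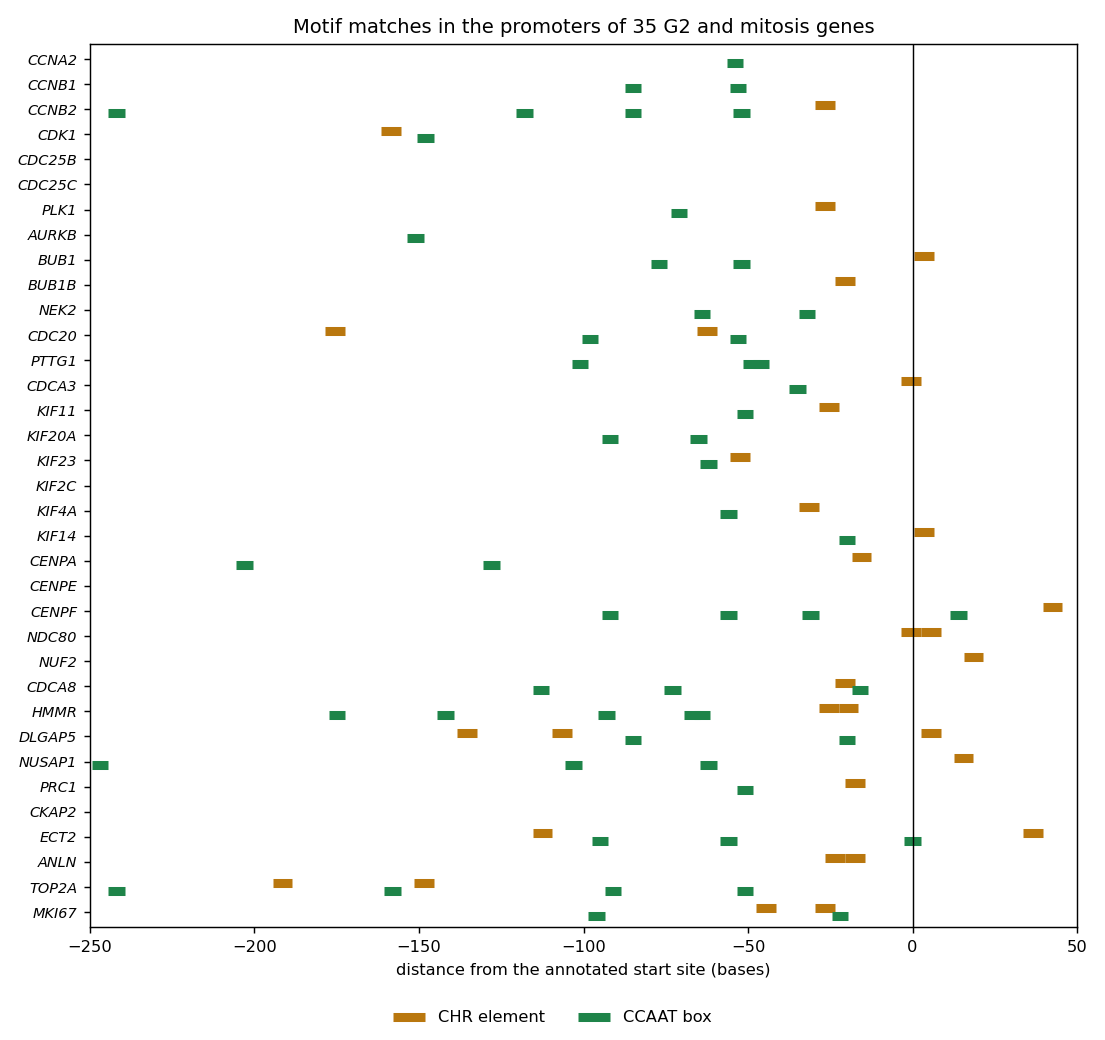
Distance of CHR (orange) and CCAAT (green) matches from the annotated start site in bases (x axis) for the 35 genes with a promoter in the table (y axis, ordered by role). CCAAT matches gather upstream with a median 69 bases before the start, and 24 of 33 CHR matches begin within 50 bases of it.

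Cyclins and their kinase moved by different amounts. CCNB1, cyclin B1, lay at 11.76 and 11.76 with lipofection, 11.62 and 11.69 with PTD-DRBD and 11.87 and 11.86 in control cells at 12 h, in log2 normalized intensity. At 24 h CCNB1 lay at 11.16 and 11.14 with lipofection, 11.50 and 11.55 with PTD-DRBD and 11.64 and 11.67 in control cells. Both lipofection arrays at 24 h were thus far below all others, and CCNB1 fell by 0.51 against control (SE 0.07, limma adjusted p = 0.000694) after −0.10 at 12 h, which did not pass. CDK1, the kinase itself, lay at 12.53 and 12.48 with lipofection, 12.28 and 12.42 with PTD-DRBD and 12.37 and 12.40 in control cells at 12 h. At 24 h CDK1 lay at 12.39 and 12.21 with lipofection, 12.59 and 12.48 with PTD-DRBD and 12.58 and 12.72 in control cells. The lipofection arrays were the lowest at 24 h, a fall of 0.35 (SE 0.09, limma adjusted p = 0.0187), and a second CDK1 probe gave −0.39 (SE 0.08). CCNA2, cyclin A2, fell by 0.38 at 24 h (SE 0.08) and CCNB2, cyclin B2, rose by 0.28 at 12 h (SE 0.07) and was at −0.20 at 24 h, short of passing.

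The CDC25 phosphatases remove inhibitory phosphates from CDK1, and both rose with lipofection at 12 h. CDC25C lay at 8.96 and 8.92 with lipofection, 8.23 and 8.23 with PTD-DRBD and 8.45 and 8.42 in control cells at 12 h. It rose by 0.50 with lipofection at 12 h (SE 0.07, limma adjusted p = 0.00148) and was at −0.08 at 24 h (SE 0.07). CDC25B lay at 11.50 and 11.60 with lipofection, 11.13 and 11.09 with PTD-DRBD and 10.97 and 11.20 in control cells at 12 h. At 24 h CDC25B lay at 11.64 and 11.66 with lipofection, 11.57 and 11.68 with PTD-DRBD and 11.33 and 11.26 in control cells. It was the member that was high on the treated arrays of both routes at 24 h, where it rose by 0.35 with lipofection (SE 0.09, limma adjusted p = 0.0163) and by 0.32 with PTD-DRBD (SE 0.09, limma adjusted p = 0.0371). The rise with lipofection at 24 h did not pass without the second control or the second lipofection array of 24 h, nor with both second treated arrays of 24 h left out.

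Of 7 mitotic and checkpoint kinases, 2 rose at 12 h and 4 fell at 24 h with lipofection, and PLK1, which acts from mitotic entry through cytokinesis, had the largest fall at 24 h. PLK1 lay at 9.22 and 9.22 with lipofection, 9.01 and 8.94 with PTD-DRBD and 8.87 and 8.68 in control cells at 12 h. At 24 h PLK1 lay at 8.10 and 8.13 with lipofection, 8.80 and 8.44 with PTD-DRBD and 8.82 and 8.70 in control cells. The lipofection arrays were the highest of their time at 12 h and the lowest at 24 h, a rise of 0.44 (SE 0.11, limma adjusted p = 0.0252) and then a fall of 0.64 to 64.0% of control (SE 0.11, limma adjusted p = 0.00258). NEK2, a kinase that frees the centrosomes from each other, likewise rose by 0.45 at 12 h (SE 0.09) and fell by 0.47 at 24 h (SE 0.09).

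AURKA, the centrosome and spindle kinase, lay at 13.02 and 13.05 with lipofection, 12.89 and 12.93 with PTD-DRBD and 12.95 and 12.93 in control cells at 12 h. At 24 h AURKA lay at 12.50 and 12.36 with lipofection, 12.86 and 12.76 with PTD-DRBD and 12.71 and 12.77 in control cells. Its lipofection arrays were the lowest at 24 h, and it fell by 0.31 (SE 0.08, limma adjusted p = 0.0148). TTK, a spindle checkpoint kinase, fell by 0.39 at 24 h (SE 0.09). AURKB, of the chromosomal passenger complex, and the checkpoint kinases BUB1 and BUB1B did not pass at either time. Their values with lipofection lay between 0.15 and 0.19 at 12 h and between −0.30 and −0.13 at 24 h.

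Of the 4 genes around the anaphase-promoting complex, only CDC20, its mitotic activator, passed with lipofection. CDC20 was the brightest member and lay at 14.43 and 14.40 with lipofection, 14.43 and 14.36 with PTD-DRBD and 14.24 and 14.25 in control cells at 12 h. At 24 h CDC20 lay at 13.89 and 13.85 with lipofection, 14.15 and 14.04 with PTD-DRBD and 14.25 and 14.18 in control cells. The lipofection arrays were the lowest at 24 h, a fall of 0.35 (SE 0.07, limma adjusted p = 0.00693). UBE2C, the complex's ubiquitin-conjugating enzyme, PTTG1, the securin that restrains separase, and CDCA3 lay between −0.11 and 0.04 at 24 h, and none of them passed with lipofection at 12 h or 24 h.

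All 6 kinesins, motor proteins of the spindle and midzone, were above control at 12 h and below it at 24 h with lipofection. KIF20A lay at 11.04 and 11.16 with lipofection, 10.33 and 10.43 with PTD-DRBD and 10.61 and 10.54 in control cells at 12 h. At 24 h KIF20A lay at 10.29 and 10.18 with lipofection, 10.58 and 10.41 with PTD-DRBD and 10.72 and 10.78 in control cells. Its lipofection arrays changed from the highest of their time to the lowest, with a rise of 0.52 (SE 0.09, limma adjusted p = 0.0033) and a fall of 0.52 (SE 0.09, limma adjusted p = 0.00228). KIF4A lay at 11.19 and 11.22 with lipofection, 10.58 and 10.67 with PTD-DRBD and 10.61 and 10.59 in control cells at 12 h, but its value of −0.15 at 24 h did not pass. KIF14, a kinesin of cytokinesis, behaved the other way, with 0.23 at 12 h, short of passing, and a fall of 0.59 at 24 h (SE 0.11). KIF2C, which takes microtubules apart at kinetochores, rose by 0.37 (SE 0.07) and fell by 0.35 (SE 0.07). KIF23, a midzone kinesin, fell by 0.33 at 24 h (SE 0.09, and −0.75 on a second probe), while KIF11, which pushes the spindle poles apart, passed at neither time.

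Of 7 kinetochore and chromosomal passenger genes, 6 fell with lipofection at 24 h. CENPF lay at 11.09 and 11.06 with lipofection, 10.71 and 10.90 with PTD-DRBD and 11.21 and 11.14 in control cells at 12 h. At 24 h CENPF lay at 10.43 and 10.34 with lipofection, 10.87 and 10.81 with PTD-DRBD and 10.98 and 11.13 in control cells. The lipofection arrays were the lowest at 24 h, and the PTD-DRBD arrays were the lowest at 12 h, where CENPF fell by 0.37 with PTD-DRBD (SE 0.09, limma adjusted p = 0.0262). NDC80, part of the complex that grips microtubules, rose by 0.51 at 12 h (SE 0.08) and fell by 0.23 at 24 h (SE 0.08). CENPE, a kinetochore motor, rose by 0.34 (SE 0.09) and fell by 0.37 (SE 0.09). CENPA, the centromeric histone, fell by 0.39 (SE 0.08), CDCA8, borealin, by 0.37 (SE 0.07) and BIRC5, survivin, by 0.34 (SE 0.08) at 24 h, and these 3 did not pass at 12 h. NUF2, the partner of NDC80, has 2 probes that disagree at 24 h, one at −0.10 and short of passing and the other, dimmer one at −0.60 (SE 0.07, limma adjusted p = 0.000444 over probes). At 12 h both NUF2 probes rose, by 0.38 (SE 0.10) and 0.54 (SE 0.07).

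Of 6 spindle genes 2 rose at 12 h and 5 fell at 24 h with lipofection. HMMR, which shapes the spindle with TPX2, lay at 11.88 and 11.97 with lipofection, 11.35 and 11.40 with PTD-DRBD and 11.60 and 11.47 in control cells at 12 h. At 24 h HMMR lay at 11.42 and 11.12 with lipofection, 11.71 and 11.49 with PTD-DRBD and 11.87 and 12.09 in control cells. The lipofection arrays lay highest at 12 h, where 0.39 just missed the threshold (SE 0.12, limma adjusted p = 0.0513), and lowest at 24 h, with the fall of 0.71 (limma adjusted p = 0.00204). HMMR was also the member that rose with time in control cells, by 0.44 (SE 0.12, limma adjusted p = 0.0379), against 4.15% of all genes that rose and 4.56% that fell, and this rise did not pass without any 1 of the 4 control arrays or of the 2 lipofection arrays of 12 h. In control cells second probes of CDK1 and NUF2 also rose with time, by 0.30 (SE 0.08, limma adjusted p = 0.0434 over probes) and 0.31 (SE 0.07, limma adjusted p = 0.02475 over probes). The probes used for these genes, at 0.26 and 0.11, did not pass. DLGAP5 and NUSAP1, which bind spindle microtubules, rose with lipofection by 0.39 (SE 0.08) and 0.32 (SE 0.08) at 12 h and fell by 0.25 (SE 0.08) and 0.27 (SE 0.08) at 24 h. TPX2, the activator of AURKA, fell by 0.26 (SE 0.08) and CKAP2 by 0.44 (SE 0.11) at 24 h, and PRC1, which bundles midzone microtubules, was at −0.25 and did not pass.

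Of 3 cytokinesis genes 2 fell with lipofection at 24 h, and neither chromosome gene passed. ECT2 lay at 9.98 and 9.93 with lipofection, 9.52 and 9.80 with PTD-DRBD and 9.79 and 9.57 in control cells at 12 h. At 24 h ECT2 lay at 9.16 and 8.63 with lipofection, 9.40 and 8.88 with PTD-DRBD and 9.63 and 9.77 in control cells. Arrays of the 2 routes overlapped, both lay below control, and replicates differed more than for other members; the fall with PTD-DRBD, −0.56 (SE 0.19, limma adjusted p = 0.065), did not pass. The ECT2 fall with lipofection was −0.54 without the second lipofection array and −0.73 without the second control array, and did not pass in either case. RACGAP1, the partner of ECT2 at the midzone, fell by 0.28 at 24 h (SE 0.08), and ANLN, a scaffold of the contractile ring, was at −0.13 and did not pass.

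TOP2A, the topoisomerase that untangles chromosomes, lay at 11.99 and 11.97 with lipofection, 11.71 and 11.72 with PTD-DRBD and 11.80 and 11.83 in control cells at 12 h. At 24 h TOP2A lay at 11.75 and 11.69 with lipofection, 12.01 and 12.02 with PTD-DRBD and 11.84 and 12.08 in control cells. Its order matched the other members, yet 0.16 at 12 h and −0.24 at 24 h did not pass. MKI67, the proliferation antigen Ki-67, was the dimmest member and lay at 7.20 and 7.18 with lipofection, 7.19 and 7.31 with PTD-DRBD and 7.38 and 7.18 in control cells at 12 h. At 24 h MKI67 lay at 7.19 and 7.14 with lipofection, 7.61 and 7.71 with PTD-DRBD and 7.14 and 7.26 in control cells. Only the PTD-DRBD arrays at 24 h stood apart.

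**Figure D3:**
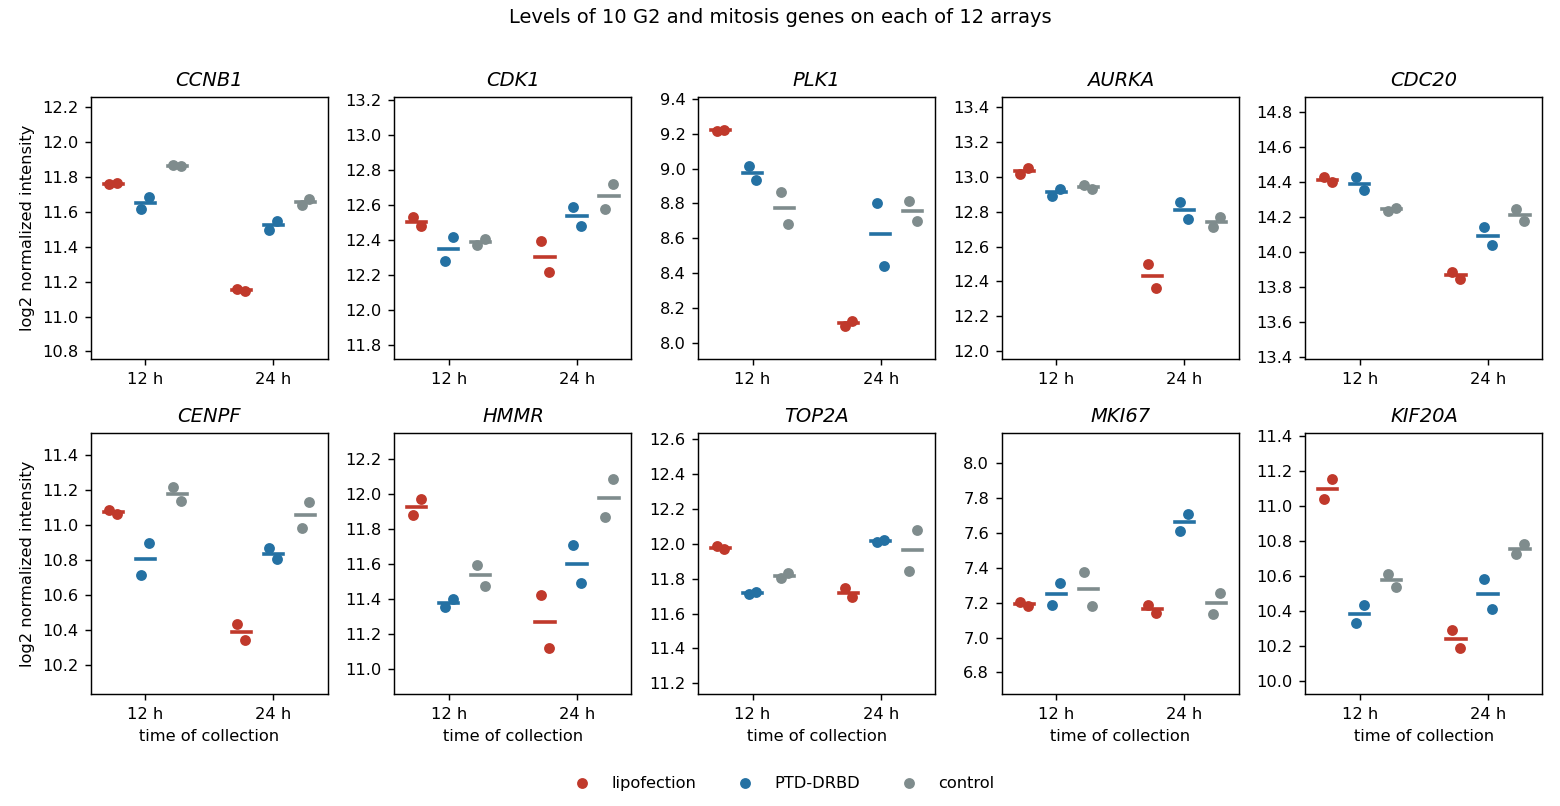
Log2 normalized intensity (y axis, each panel spans the same 1.5 units) of 10 members on each of the 12 arrays by time (x axis); points are arrays and bars the mean of 2. In 9 panels, all but MKI67, both lipofection arrays at 24 h lie below all others of that time, and in 6 (CDK1, PLK1, AURKA, HMMR, TOP2A and KIF20A) they lie above the others at 12 h.

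Over the whole set, both lipofection arrays lay above all 4 other arrays of their time in 34 of the 41 genes at 12 h, against 16.6% of all genes, and above them in 0 at 24 h, against 14.4%. Both lay below the 4 others in 32 at 24 h, against 14.4% of all genes, and in 0 at 12 h, against 17.2%. The median of the 41 genes relative to the mean of the 4 control arrays was 0.20 and 0.24 with lipofection at 12 h, and −0.23 and −0.37 at 24 h. On PTD-DRBD arrays it was −0.06 and −0.00 at 12 h and 0.02 and −0.05 at 24 h. On control arrays it ran from −0.03 to 0.04, close to 0 in part because their own mean is the reference. Both counts were made after the values had been seen.

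At 24 h the treated arrays lay above control arrays on the main axis of the differences between replicate arrays at 12 h. They were at 0.33 and 1.5 SD with lipofection and 0.71 and 1.46 SD with PTD-DRBD, against −0.20 and −0.66 SD in control cells. They overlapped with arrays of 12 h, where PTD-DRBD was at 0.79 and −1.57 SD. Genes of the set lay on the falling side of that axis, with a median loading of −0.36 SD and 12 of 41 above 0. The direction of the axis was set so that the second lipofection array of 24 h lay above 0. It held 46.1% of the squares of the replicate differences at 12 h. With the axis as a covariate, 15 of the 41 genes fell and 0 rose with lipofection at 24 h, and CDC25B did not pass. Any other part of the axis in the results was not tested.

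**Figure D4:**
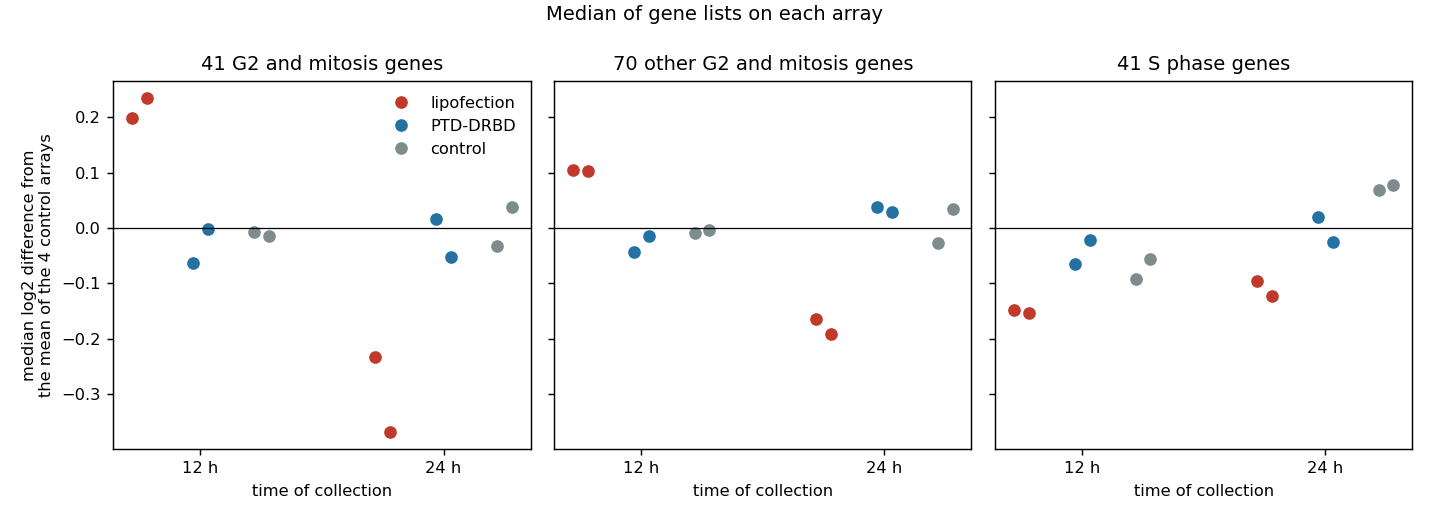
Median log2 difference from the mean of the 4 control arrays (y axis) for the 41 genes, 70 other G2 and mitosis genes and 41 S phase genes, with 1 point per array by time (x axis). In the first panel the lipofection points are at 0.20 and 0.24 at 12 h and at −0.23 and −0.37 at 24 h, and PTD-DRBD points lie between −0.06 and 0.02.

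With PTD-DRBD few members passed. At 12 h CENPF fell and 0 rose, against 4.46% of all genes that fell and 3.42% that rose, and the median of the 41 was −0.03. At 24 h MKI67 rose by 0.46 (SE 0.09, limma adjusted p = 0.00972) and CDC25B by 0.32, and 0 fell, against 5.87% of all genes that rose and 8.15% that fell, with a median of −0.01. The CENPF fall did not pass without either 12 h control array or the first PTD-DRBD array of 12 h, and the MKI67 rise did not pass without the first control or the second PTD-DRBD array of 24 h. The CDC25B rise did not pass without any 1 of the 4 control and PTD-DRBD arrays of 24 h, nor without either lipofection array of 12 h. Without the first PTD-DRBD array of 24 h 1 member rose and 2 fell, and without either lipofection array of 24 h, which moves only the shared spread, 2 rose and 2 fell. The 95% interval of the PTD-DRBD effect at 24 h ran from −0.28 to 0.02 for CCNB1 and from −0.38 to 0.11 for PLK1. Falls down to −0.28 and −0.38 thus lie within these intervals, and larger ones do not. HMMR at −0.38 (SE 0.12, limma adjusted p = 0.0523) and KIF20A at −0.26 (SE 0.09, limma adjusted p = 0.0682) were the nearest below the threshold there beside ECT2. With the authors' normalized values, and with quantile normalization without background correction, HMMR, KIF20A and ECT2 fell there and UBE2C rose as well.

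Set directly against each other, the routes differed in both directions over time. At 12 h, 13 members were higher with lipofection than with PTD-DRBD and 0 lower, against 6.51% and 8.29% of all genes, with a median of 0.26. KIF20A was higher by 0.72 (SE 0.09, limma adjusted p = 0.000436), or 164% of its PTD-DRBD level, CDC25C by 0.71 (SE 0.07), KIF4A by 0.58 (SE 0.08), HMMR by 0.55 (SE 0.12) and NUF2 by 0.51 (SE 0.10). At 24 h, 14 members were lower with lipofection and 0 higher, against 3.57% and 4.69% of all genes, and 40 of 41 values were below 0. CENPA was lower by 0.55 (SE 0.08, limma adjusted p = 0.00174), or 68.1% of its PTD-DRBD level, KIF14 by 0.51 (SE 0.11), PLK1 by 0.51 (SE 0.11), MKI67 by 0.50 (SE 0.09) and CENPF by 0.45 (SE 0.09). Second probes were at −0.56 for NUF2 (SE 0.07) and −0.55 for KIF23 (SE 0.14), against −0.09 and −0.34 on the probes used for these genes. NEK2 and KIF2C passed in both directions, and 13 members were lower with lipofection at 24 h than in control cells and than with PTD-DRBD. Neither count was made over all genes, and the comparisons behind the 13 share the lipofection arrays of 24 h. Without the second lipofection or the first PTD-DRBD array of 24 h, 3 were lower, and without the other array of each, 7 and 8. With only the arrays of the 2 groups fitted 1 member, CENPA, was lower at 24 h, and with both second treated arrays left out 2 were. At 12 h, 7 were higher without the second lipofection array. Only CENPA of the 10 with the largest differences at 24 h passed in all 23 other settings.

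The change of the lipofection effect from 12 h to 24 h passed in 29 members, all downward, against 4.02% of all genes downward and 3.97% upward. The median change was −0.51, and 35 members were above control at 12 h and below it at 24 h. This pattern was not counted over all genes. HMMR changed by −1.10 (SE 0.17, limma adjusted p = 0.00635), PLK1 by −1.09 (SE 0.16), ECT2 by −1.08 (SE 0.26), KIF20A by −1.04 (SE 0.12) and NEK2 by −0.93 (SE 0.13). Values for KIF14, KIF4A, NDC80, KIF2C and CENPE lay between −0.83 and −0.70. The 2 NUF2 probes disagreed here as well. The one used for the gene was at −0.49 and did not pass, and the dimmer one was at −1.14 (SE 0.10, limma adjusted p = 0.000732 over probes). The change of the PTD-DRBD effect passed in 0 members in limma, against 0.239% of all genes downward and 0.124% upward, with a median of 0.04. It also passed in 0 in each other setting run. At an unadjusted limma p under 0.05 it would be 5 members, CDC25B, CDC25C, CDC20, CENPA and MKI67. How many of all genes lay under that p was not counted, so the 5 are not read as a result. Both changes use the same control arrays.

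The change of the difference between the routes, whose values use no control array, was added after the values had been seen. Its spread comes from all 12 arrays, controls included, and with only the lipofection and PTD-DRBD arrays fitted 12 members passed. It passed in 24 members downward and 0 upward, against 1.68% and 2.06% of all genes, and all 41 values were below 0 with a median of −0.56. KIF20A changed by −0.97 (SE 0.12, limma adjusted p = 0.00386), HMMR by −0.88 (SE 0.17), NEK2 by −0.88 (SE 0.13), CDC25C by −0.82 (SE 0.10) and KIF4A by −0.81 (SE 0.11). The same 21 members passed this and the change of the lipofection effect, which share the lipofection arrays. A joint count over all genes was not made. Single arrays mattered for both counts: the lipofection change gave 8 or 9 without 1 lipofection array of 12 h and 10 to 16 without 1 control array, 13 without the second lipofection array of 24 h. The route change gave 6 or 7 without 1 lipofection array of 12 h, 8 without the first PTD-DRBD array of 12 h or the second lipofection array of 24 h, and 9 or 13 without 1 PTD-DRBD array of 24 h.

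**Figure D5:**
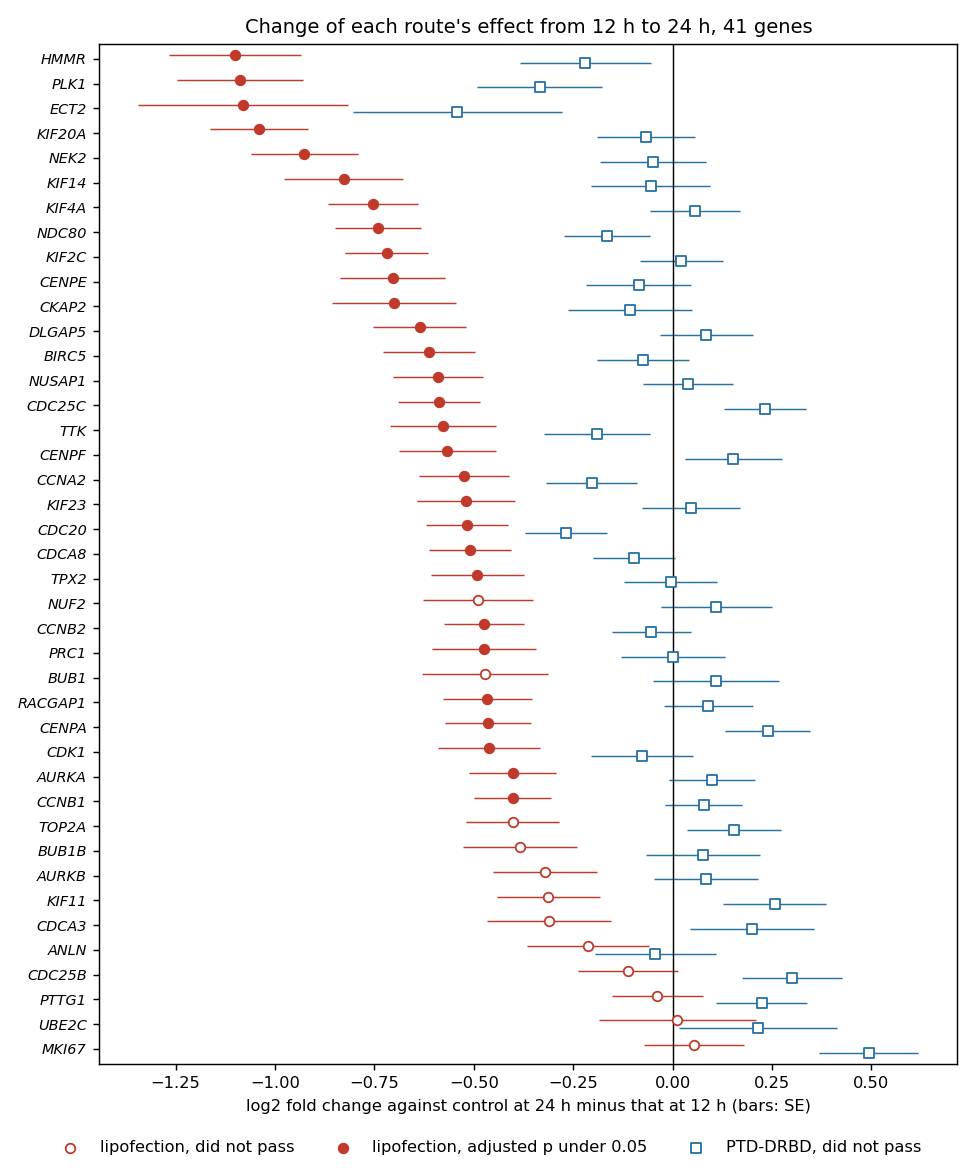
Change of the log2 fold change against control from 12 h to 24 h (x axis, bars are SE) for each of the 41 genes (y axis), with lipofection as circles, PTD-DRBD as squares, and filled symbols for an adjusted p under 0.05. Lipofection circles reach −1.10 and 29 are filled, and none of the PTD-DRBD squares is filled.

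Genes outside the set were counted from lists that hold other genes of the same pathway. Of 70 measured other G2 and mitosis genes, 11 passed upward and 0 downward with lipofection at 12 h, with a median of 0.12, and 21 fell and 2 rose at 24 h, with a median of −0.17. CENPI, a kinetochore gene, rose by 0.49 (SE 0.11) and then fell by 0.53 (SE 0.11), and SKA3, of the kinetochore's microtubule coupler, fell by 0.57 at 24 h (SE 0.08). FOXM1, the transcription factor of this gene class, rose at both times, by 0.30 at 12 h and 0.28 at 24 h with lipofection. With PTD-DRBD 0 of the 70 rose and 1 fell at 12 h, and 4 rose and 0 fell at 24 h, FOXM1 at 0.34 (SE 0.07) among them. Of 20 genes of the DREAM and MuvB complexes and CDK inhibitors, CDKN1B at 0.72 (SE 0.10) and CDKN2D at 0.54 (SE 0.11) rose with lipofection at 12 h and 0 fell. Both encode CDK inhibitors. At 24 h 4 of these 20 rose and 4 fell, with LIN52, a MuvB subunit, at −0.54 (SE 0.08). Of 15 core subunits of the anaphase-promoting complex, 0 passed in either direction at 12 h and 3 rose and 2 fell at 24 h with lipofection. Over all genes, lipofection gave 4.95% that rose and 6.92% that fell at 12 h, 10.6% rose and 12.9% fell at 24 h, and with PTD-DRBD 3.42% rose and 4.46% fell at 12 h and 5.87% rose and 8.15% fell at 24 h.

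Of 41 measured genes of S phase, 9 fell and 0 rose with lipofection at 12 h, where 6.92% of all genes fell, and the other 32 did not pass. The falls included MCM6, a subunit of the replicative helicase, at −0.75 (SE 0.09) and CCNE1, cyclin E1, at −0.66 (SE 0.11). At 24 h 12 fell and 0 rose, where 12.9% of all genes fell, and 29 did not pass. The falls were led by RRM2, a subunit of ribonucleotide reductase, at −0.71 (SE 0.14) and POLA2, of DNA polymerase alpha, at −0.65 (SE 0.07). The change of the lipofection effect passed in 3 S phase genes upward and 3 downward, against 3.97% and 4.02% of all genes.

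In the authors' deposited table of probes that changed at least 1.6-fold, members appear only with lipofection at 24 h. There ECT2 has a signed fold of −1.68 and HMMR of −1.62, the minus sign standing for a fall, among 179 probes listed. The lists for lipofection at 12 h and for PTD-DRBD at 12 h and 24 h, of 105, 45 and 55 probes, hold 0 members. With an added fold of at least 1.6 in the limma fit, 2 members passed with lipofection at 24 h and 0 at 12 h.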

How the data were processed

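Per the labels, RNA of H1299 cells was hybridised to Illumina BeadChips. The authors deposited non-normalized probe intensity values with a detection p-value per probe, and a normalized table. Their software was BeadStudio, per the submitters' processing notes, and the steps behind the normalized values are not stated there. A further deposited table lists probes that changed at least 1.6-fold, with the authors' signed fold as a score per probe. From the intensities, limma 3.58.1 in R 4.3.3 was used to correct background from detection p-values, add an offset of 16, quantile normalize and take log2. Each gene was given its probe of highest mean, genes detected in no group were left out, and 1 model of 6 group means was fitted to 12 arrays, with Benjamini-Hochberg adjustment over 12117 genes. The model was also run on simulated data with independent noise for each gene and array. That run cannot speak to differences between arrays that genes share. Members, lists and comparisons were chosen with earlier results of these data known. Members that passed are named from the 10 of largest change per comparison, with 10 fixed members shown in any case, and list genes from the 4 of largest change. The number of arrays limits the precision.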

Additional observations from a re-analysis of the deposited data

Results flagged for a closer look

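The lipofection effect differed between 12 h and 24 h by an interaction test in limma in 29 of the 41 members. The change on the log2 scale was −1.10 for HMMR, −1.09 for PLK1, −1.08 for ECT2, −1.04 for KIF20A and −0.93 for NEK2. It was −0.83 for KIF14, −0.75 for KIF4A, −0.74 for NDC80, −0.72 for KIF2C and −0.70 for CENPE. Smaller changes were −0.40 for CCNB1, −0.46 for CDK1, −0.40 for AURKA, −0.52 for CDC20 and −0.57 for CENPF. Of 23 other settings, the change of CDK1 passed in 8, that of AURKA in 8, that of ECT2 in 14 and that of CCNB1 in 15, while CDC20 and CENPF passed in 17 each and KIF14 and CENPE in 20 each.

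The difference between lipofection and PTD-DRBD also differed between the times, in 24 members. That change was −0.97 for KIF20A, −0.88 for HMMR, −0.88 for NEK2, −0.82 for CDC25C and −0.81 for KIF4A. It was −0.77 for KIF14, −0.75 for PLK1, −0.74 for KIF2C, −0.72 for DLGAP5 and −0.72 for CENPF, and −0.48 for CCNB1, −0.50 for AURKA and −0.56 for TOP2A.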

How the results depend on the processing

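Over 75 pairs of a named member and a comparison and 23 other settings, 1496 of 1725 values kept direction and call, 229 lost the call and 0 changed direction. These pairs had passed in the main fit, so a change of direction was unlikely from the start. Leaving out an array of a group outside a comparison changes only the shared spread. Counts of members that passed moved more, and the cause was not tested. They were not set beside the same counts over all genes. With a fold of at least 1.6 they were 0 for lipofection at 12 h, 2 at 24 h, 0 for PTD-DRBD at either time, 2 and 0 between routes at 12 h and 24 h, 11 for the lipofection change and for the route change and 0 in control cells. Fitting only the arrays compared gave 17 for lipofection at 24 h, 0 and 1 for PTD-DRBD, 1 between routes at 24 h and 12 for the route change. The replicate axis as a covariate gave 15 for lipofection and 1 for PTD-DRBD at 24 h and 2 in control cells. Leaving out both second treated arrays of 24 h gave 11, 0 and 2 for lipofection, PTD-DRBD and the routes at 24 h, and 11 and 6 for the changes. Quantile normalization without background correction gave 6 for PTD-DRBD at 24 h, 21 and 22 between routes and 2 in control cells. The authors' values gave 2 and 6 for PTD-DRBD and 20 between routes at 12 h. In both settings 3 of the 6 for PTD-DRBD at 24 h rose and 3 fell. An intensity trend with robust moderation gave 2 for PTD-DRBD at 12 h, 7 at 24 h, where 4 of them fell and 3 rose, 21 and 24 between routes and 4 in control cells. No detection filter gave 0 and every probe on its own 3 in control cells. Leaving out 1 array gave 5 to 15 for lipofection at 12 h and 11 to 24 at 24 h, 0 to 1 and 0 to 4 for PTD-DRBD, 7 to 15 and 3 to 16 between routes, 8 to 30 and 6 to 21 for the lipofection and route changes, and 0 to 1 in control cells. Without the first PTD-DRBD array of 24 h, 3 passed there, 2 of them lower. No paired analysis was possible because arrays of different groups share no replicate number in the columns.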
